A study of Mus musculus with 8 samples.

Results

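Long-gap joins were TCR α-chain clonotypes with 8 or more nucleotides between the last base assigned to the V segment and the first base assigned to the J segment. They were chosen from the deposited V end and J start positions alone, and they numbered 1428 of 53249 α-chain clonotypes in 8 mice, leaving 51821 other clonotypes. The cells were endogenous CD8+ T (en-T) cells, sorted as CD8+ and Thy1.1-negative from the inguinal lymph nodes and spleen of C57BL/6 female mice that were 6 to 8 weeks of age at tumor inoculation. All mice carried 200000 intradermal B16F10 melanoma cells and had their lymphocytes depleted on day 3 with cyclophosphamide (CTX) at 300 mg/kg. They then received 2000000 Thy1.1 Pmel-1 cells, CD8+ T cells with a transgenic receptor for gp100, on day 5, and 10000 IU of IL-2 daily for 3 days. The CTXpre group (n = 3 mice) had no further treatment, and the CTXpre/CD4post group (n = 5 mice) was also given 200 μg anti-CD4 antibody (GK1.5) on days 10, 17 and 24. Cells were collected on day 25, and the question was whether anti-CD4 treatment changed the receptor repertoire of these cells. The receptor RNA of the transferred cells was kept out only by the Thy1.1 gate.

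The α-chain locus joins a V segment directly to a J segment, so the CDR3 loop is made of a V end, a J start and the nucleotides between them. Before the ends are joined, the opened hairpins leave short palindromic (P) nucleotides, exonucleases trim the segments, and terminal deoxynucleotidyl transferase (TdT) adds untemplated (N) nucleotides with a preference for G and C. Because N nucleotides are not copied from the genome, a join with many of them is less likely to arise again in another animal than a join with few.

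Each library held 10000 reads and between 5043 and 7695 α-chain clonotypes, and the number of mice limits the precision of group comparisons. The mice are the replicates, and p-values of the exact tests measure the spread between these mice. Those of edgeR and DESeq2, given for segment use, rest on numbers of clonotypes and on a spread estimated over all segments together. They can therefore be far below 0.00781, the smallest p that the exact sign-flip test over 8 mice allows. Libraries of CTXpre/CD4post replicates 1 and 2 stood apart in what they shared: 15 nucleotide sequences with 5 or more inserted nucleotides were found in these 2 mice and no other, against 0 to 7 for each other pair of mice. Presence in other mice is therefore also given with every sequence found only in this pair counted as not shared.

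The bases of a deposited gap were not always absent from the named segments. TRAV9-2 (GRCm38 chr14:53590857-53591514, plus strand) ended at base 3 of the CDR3 in all 242 of its clonotypes, although 207 of them matched its germline sequence for 10 or more bases. TRAJ24 (chr14:54195638-54195700, plus strand) started with 25 bases left to the end of the CDR3 in 561 of 614 clonotypes, although 593 matched its germline for more than 25 bases. As a result 205 of 242 TRAV9-2 clonotypes and 197 of 614 TRAJ24 clonotypes were long-gap joins. The sequences below show both segments, with the germline bases beyond the deposited end in capitals, and 1 join of each, first with the deposited gap in capitals and then with what was left after both ends were extended along the germline by exact match. They are shown because they decide which joins carried untemplated nucleotides.
TRAV9-2 germline: tgtGTTTTGAGCG
TRAV9-2 with TRAJ32, CTXpre replicate 3, deposited: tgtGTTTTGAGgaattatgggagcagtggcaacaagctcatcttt
TRAV9-2 with TRAJ32, CTXpre replicate 3, extended: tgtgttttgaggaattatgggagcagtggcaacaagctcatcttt
TRAJ24 germline: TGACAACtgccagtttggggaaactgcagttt
TRAV14D-3-DV8 with TRAJ24, CTXpre/CD4post replicate 5, deposited: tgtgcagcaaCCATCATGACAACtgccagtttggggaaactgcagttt
TRAV14D-3-DV8 with TRAJ24, CTXpre/CD4post replicate 5, extended: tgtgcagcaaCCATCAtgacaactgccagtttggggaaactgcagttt

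Extension took the TRAV9-2 join from 8 gap nucleotides to 0 and the TRAJ24 join from 13 to 6. Over all long-gap joins, 993 of 1428 (69.5%) still had 8 or more nucleotides that belonged to neither named segment, and these are called net inserts. Of the 435 joins that fell below 8, 378 used TRAV9-2 or TRAJ24, and the 435 held 722 of the 1993 reads of long-gap joins. Only 9 of 205 TRAV9-2 joins and 12 of 197 TRAJ24 joins were net inserts. TRAJ47 went from 55 to 24 joins and TRAJ45 from 51 to 36. Each result below is given for the deposited gaps first and then for net inserts, an alternative chosen after seeing the data.

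The next sequences are the most abundant net insert of each group and the only net insert found in 2 mice, with the inserted nucleotides in capitals. They show what an insert of this length looked like once germline bases were removed.
TRAV5-4 with TRAJ58, CTXpre replicate 1, 15 reads: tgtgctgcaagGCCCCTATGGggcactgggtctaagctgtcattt
TRAV3N-3 with TRAJ31, CTXpre/CD4post replicate 5, 10 reads: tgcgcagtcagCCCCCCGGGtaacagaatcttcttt
TRAV12D-2 with TRAJ34, CTXpre/CD4post replicate 1, 1 read: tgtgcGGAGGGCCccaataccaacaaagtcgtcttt

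These 3 inserts were 10, 9 and 8 nucleotides long and were made of G and C for the most part. Net inserts had a median of 9 nucleotides, and the 993 held 920 distinct inserted sequences. They were spread over 763 V-J pairs, of which 596 were used by 1 clonotype. They used 104 V segments and 44 J segments, and no V-J pair held more than 5 of them. Other clonotypes used 116 V segments and the same number of J segments, 44.

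Numbers of clonotypes fell steadily with gap length on both sides of the threshold. By deposited ends, 976 clonotypes lay just outside it with 7 nucleotides and 557 just inside it with 8. A further 332 had 9, 229 had 10, 262 had 11 to 15 and 48 had 16 or more. With extended ends the numbers were 861 at 7, 448 at 8, 249 at 9, 146 at 10, 120 at 11 to 15 and 30 at 16 or more, so the numbers fell by more at longer gaps, up to 15 nucleotides. The longest gap was 71 nucleotides in a CTXpre mouse and 103 in a CTXpre/CD4post mouse, and neither was shortened by extension.

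**Figure D1:**
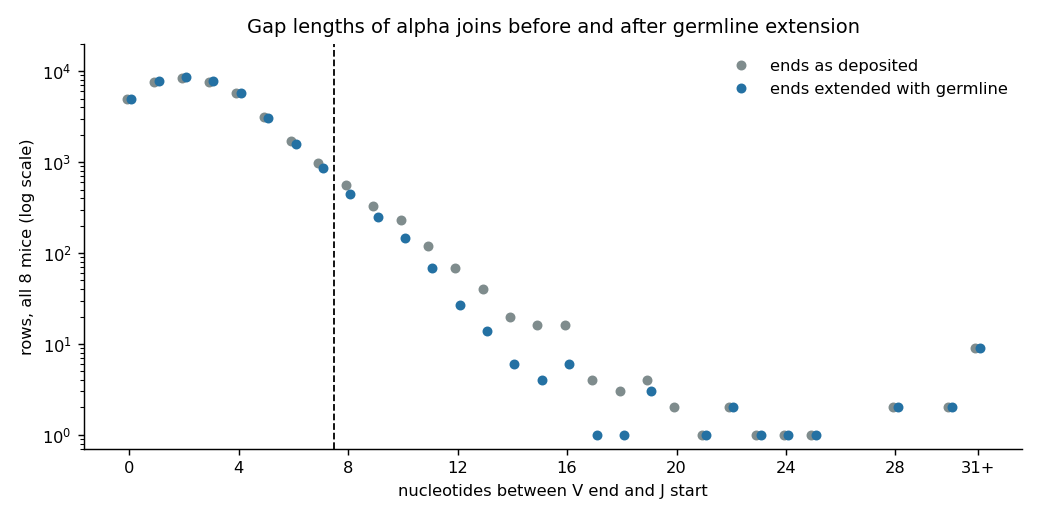
Number of α-chain clonotypes of all 8 mice (y axis, log scale) by the nucleotides between V end and J start (x axis), with ends as deposited (grey) and extended along the germline (blue), and a dashed line at the threshold of 8. Both series fall from 4 to 15 nucleotides and vary at low numbers beyond. The blue points lie below the grey ones at 8 nucleotides (448 against 557) and 10 nucleotides (146 against 229).

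The share of long-gap joins did not differ between the groups by more than the spread between mice. The 3 CTXpre mice held 197, 214 and 179 of them and the 5 CTXpre/CD4post mice 163, 181, 200, 158 and 136, listed by replicate number here and below. As a share of clonotypes this was 2.73, 2.82 and 2.55% in CTXpre mice and 2.74, 2.35, 2.97, 2.63 and 2.70% in CTXpre/CD4post mice. The groups overlapped, with means of 2.70 ± 0.139% (SD, n = 3) and 2.68 ± 0.221% (SD, n = 5), and the exact Mann–Whitney test (two-sided, as throughout) gave p = 1. As a share of reads the values were 2.64, 2.51 and 2.36% in CTXpre mice and 2.28, 2.10, 2.43, 2.08 and 3.53% in CTXpre/CD4post mice. The means were 2.50 ± 0.140% (SD, n = 3) and 2.48 ± 0.602% (SD, n = 5), with p = 0.393 in the same exact test. The Wilson 95% interval was 3.19 to 3.91% for the highest mouse, CTXpre/CD4post replicate 5, and 1.82 to 2.38% for the lowest, and such intervals cover counting error only, since reads were counted without molecular identifiers.

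The high share of reads in replicate 5 of the CTXpre/CD4post group rested on 1 clonotype. The TRAV14D-3-DV8 with TRAJ24 join printed above held 138 reads, which was 39.1% of the long-gap reads of that mouse, and without it the share was 2.18%, within the range of the other mice. Reads per clonotype without it were 1.59, still above the 1.16 to 1.40 of the other mice, and 3 of the 4 long-gap joins with 10 or more reads in that mouse remained. Its gap was 6 nucleotides after extension, so it was no net insert.

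Net inserts made up 1.93, 2.01 and 1.94% of clonotypes in CTXpre mice and 1.70, 1.60, 2.06, 1.86 and 1.80% in CTXpre/CD4post mice, again overlapping (1.96 ± 0.0424% against 1.81 ± 0.176%, exact Mann–Whitney p = 0.25). Their share of reads was 1.91, 1.74 and 1.79% in CTXpre mice and 1.40, 1.43, 1.71, 1.41 and 1.32% in CTXpre/CD4post mice. Here every CTXpre mouse was above every CTXpre/CD4post mouse, by 0.359 percentage points in the means (1.81 ± 0.0874%, SD, n = 3, against 1.45 ± 0.149%, SD, n = 5). The same Mann–Whitney test gave an exact p of 0.0357, the smallest that 3 mice against 5 allow, and 0.0714 after Benjamini-Hochberg adjustment over the 2 shares, so the difference does not pass the correction. The closest mice were CTXpre replicate 2 at 1.74% and CTXpre/CD4post replicate 3 at 1.71%. Extension with any annotated segment in place of the named one gave p = 0.0714 in this exact test. Each library was set to 10000 reads, so a share of reads also depends on the other clonotypes. With extended ends, other clonotypes with 10 or more reads numbered 11, 12 and 15 in CTXpre mice and 43, 21, 35, 61 and 101 in CTXpre/CD4post mice, with every CTXpre mouse below every CTXpre/CD4post mouse. Other clonotypes had 1.39, 1.32 and 1.43 reads each in CTXpre mice and 1.69, 1.30, 1.49, 1.67 and 1.99 in CTXpre/CD4post mice, and net inserts had 1.14 to 1.37 and 1.16 to 1.45. The part of these differences in the share of net inserts was not tested. In libraries of RNA, fewer cells with such a join and less receptor RNA per cell cannot be told apart.

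**Figure D2:**
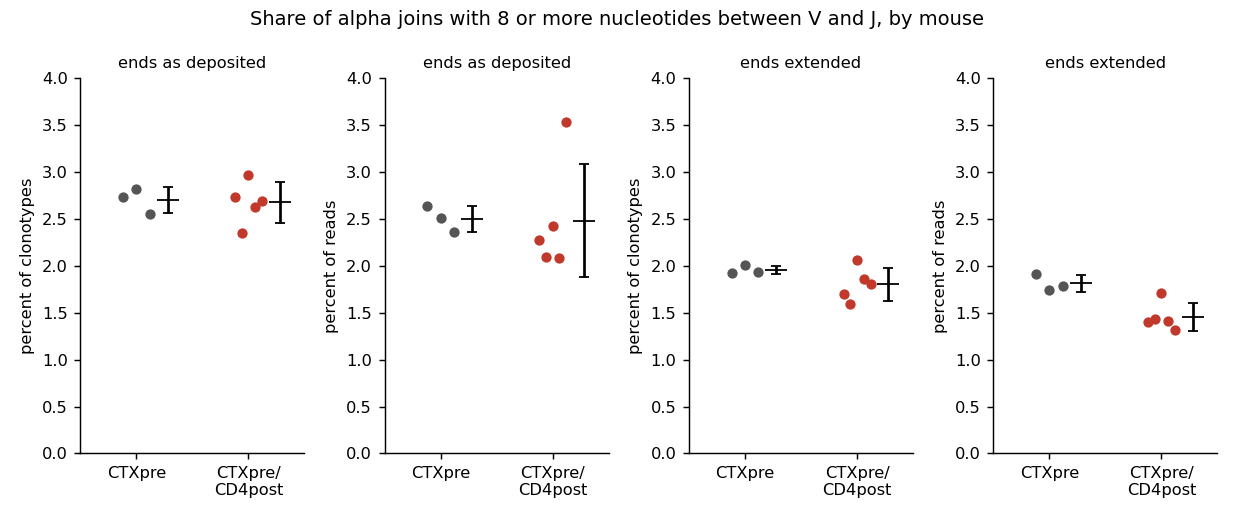
Share of α-chain clonotypes or reads (y axes, percent) that were joins with 8 or more nucleotides between V and J, by group, with 1 point per mouse and the mean ± SD beside the points, for deposited ends (left pair of panels) and extended ends (right pair). The groups overlap in 3 panels, 1 CTXpre/CD4post mouse stands at 3.53% of reads with deposited ends, and with extended ends the CTXpre mice lie at 1.74 to 1.91% of reads and the CTXpre/CD4post mice at 1.32 to 1.71%.

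Most long-gap joins were seen in 1 read. Within mice, 81.5 ± 6.25% of long-gap joins (SD, n = 8 mice) and 74.6 ± 5.24% of other clonotypes had 1 read, and the difference of 6.84 percentage points had the same sign in 8 of 8 mice. The exact two-sided sign-flip test over mice gave an adjusted p of 0.0100, after Benjamini-Hochberg adjustment over 9 within-mouse measures. For net inserts the share was 81.7 ± 7.16%, with the same adjusted p in this exact test. Long-gap joins had 1.44 ± 0.475 reads per clonotype (SD, n = 8) and other clonotypes 1.53 ± 0.227, which did not differ in the exact test (adjusted p = 0.438). Net inserts had 1.29 ± 0.110 against 1.53 ± 0.235 and were lower in 8 of 8 mice, with an exact adjusted p of 0.0100. Without CTXpre/CD4post replicate 5 the difference by deposited ends was −0.196 reads, with an exact adjusted p of 0.0176.

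Few clonotypes of either kind were abundant. Of 1428 long-gap joins 5 had 10 or more reads (0.350%), and of 51821 other clonotypes 296 (0.571%), a difference that was not tested. Among net inserts it was 2 of 993 (0.201%). The most abundant long-gap join of each CTXpre mouse had 15, 4 and 4 reads, and that of each CTXpre/CD4post mouse 9, 7, 8, 8 and 138. The most abundant other clonotype, the highest of many more, had 47, 60 and 65 reads in CTXpre mice and 121, 39, 100, 74 and 123 in CTXpre/CD4post mice, so in CTXpre/CD4post replicate 5 the long-gap join was the most abundant clonotype of all. In the order of the mice these joins were TRAV5-4 with TRAJ58, TRAV5-1 with TRAJ15 (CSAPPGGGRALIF) and TRAV7-5 with TRAJ42 (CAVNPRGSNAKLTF) in the CTXpre group. In the CTXpre/CD4post group they were TRAV7D-3 with TRAJ35, TRAV7D-2 with TRAJ4 (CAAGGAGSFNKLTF), TRAV16N with TRAJ22, TRAV19 with TRAJ47 (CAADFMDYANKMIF) and the TRAV14D-3-DV8 with TRAJ24 join. In replicates 2 and 3 of the CTXpre group 2 and 3 joins, respectively, tied at 4 reads. TRAV19 with TRAJ47 and TRAV14D-3-DV8 with TRAJ24 were no net inserts, and the other 6 were. Of the 4 long-gap joins with 10 or more reads in CTXpre/CD4post replicate 5, both TRAV9-2 joins, with TRAJ34 and TRAJ26, had 18 and 14 reads and were left with 3 gap nucleotides each, and the 10-read TRAV3N-3 join kept its 9.

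Properties of long-gap joins were compared between the groups in 8 exact Mann–Whitney tests, and none passed an adjusted p of 0.05 (adjusted p = 1 for each exact test). Reads per clonotype were 1.28 ± 0.0909 in CTXpre mice (n = 3) and 1.54 ± 0.599 in CTXpre/CD4post mice (n = 5). Their ratio to other clonotypes of the same mouse was 0.925 ± 0.0397 against 0.928 ± 0.222, and the share with 1 read was 80.0 ± 5.62% against 82.3 ± 7.08%. Mean gap length was 9.82 ± 0.210 against 10.1 ± 0.461 nucleotides and mean CDR3 length 14.7 ± 0.191 against 14.6 ± 0.236 amino acids. G and C made up 66.1 ± 1.24% against 64.7 ± 1.37% of gap nucleotides. For net inserts the ratio of reads per clonotype was 0.926 ± 0.0628 against 0.805 ± 0.0655, with an adjusted p of 0.571 in the exact test, the lowest of the 8.

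Long-gap joins were rarely found in a second mouse. By nucleotide sequence, 2.02 ± 1.55% of them (SD, n = 8 mice) and 28.3 ± 1.27% of other clonotypes occurred in at least 1 other mouse, a difference of −26.2 percentage points with the same sign in 8 of 8 mice (exact sign-flip test, adjusted p = 0.0100). By amino acid sequence with V and J, the shares were 2.41 ± 1.63% and 25.2 ± 1.01%, with the same adjusted p in the exact test. A shared sequence counts in every mouse that holds it, so these shares are not independent between mice, although the sign-flip test treats the mice as independent, here and below. With sequences found only in CTXpre/CD4post replicates 1 and 2 counted as not shared, the differences were −25.7 percentage points by nucleotide and −22.4 by amino acid sequence, each with the same exact adjusted p. The share of long-gap joins found in another mouse was 3.05, 0.935 and 1.12% in CTXpre mice and 4.91, 1.66, 3.00, 0 and 1.47% in CTXpre/CD4post mice, so the groups overlapped. Without the pair's own sequences the first 2 CTXpre/CD4post values were 3.68 and 1.105%.

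The long-gap joins that were shared were mostly joins without long inserts. Clonotypes were counted mouse by mouse, so a sequence found in several mice is counted in each of them. Of the 1428, 29 were found in more than 1 mouse, 20 of them in 2 and 9 in 3, and they held 15 distinct sequences. By the same count, 248 other clonotypes had a sequence that was present in all 8 mice. TRAV9-2 or TRAJ24 was used by 26 of the 29 shared joins, and 27 of the 29 fell below 8 nucleotides on extension, 18 of them keeping 1 to 6 nucleotides and 9 keeping none. The joins found in most mice were TRAV9-2 with TRAJ30 (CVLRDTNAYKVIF), TRAJ32 and TRAJ23 (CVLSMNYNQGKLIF), each in 3 mice at 1 or 2 reads, and their gaps after extension were 1, 0 and −1 nucleotides, where −1 means that V and J matches overlapped by 1 base. Among 993 net inserts, 2 were shared, and both were the 8-nucleotide TRAJ34 join printed above (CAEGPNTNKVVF). It had 1 read each in CTXpre/CD4post replicates 1 and 2, the pair of libraries that stood apart, and was named with TRAV12D-2 in the former and TRAV12N-3 in the latter. The shares in another mouse were 0.225 ± 0.420% for net inserts and 28.1 ± 1.26% for other clonotypes (n = 8, exact sign-flip adjusted p = 0.0100), and 0 and 27.3 ± 1.77% with the pair's own sequences counted as not shared.

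Presence in other mice fell with each added nucleotide. With extended ends, 46.7% of clonotypes whose V and J matches overlapped were in another mouse, 45.2% of those with 0 nucleotides between V and J, 38.4% with 1 nucleotide, 22.8% with 2, 15.7% with 3, 9.51% with 4, 3.30% with 5, 1.94% with 6 and 0.813% with 7. At 8 or more it was 0.201%, or 2 of 993. With sequences found only in CTXpre/CD4post replicates 1 and 2 counted as not shared, the values were 44.3% at 0, 2.91% at 5, 1.25% at 6, 0.348% at 7 and 0 of 993 at 8 or more, and the highest mouse at 6 nucleotides went from 5.99 to 2.40%. The share with 1 read rose from 72.1% at 0 to 82.2% at 8 or more. These are values pooled over mice, given as a description with no test.

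**Figure D3:**
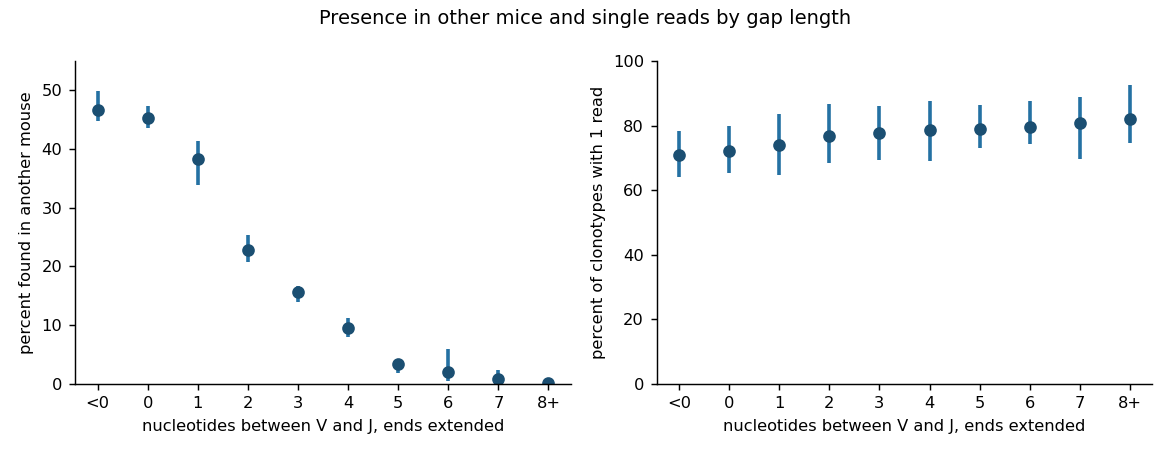
Share of α-chain clonotypes found in another mouse (left) and seen in 1 read (right), both in percent on the y axis, by nucleotides between V and J with extended ends (x axis), with the pooled value as a point and the lowest to highest of the 8 mice as a line. Presence in other mice falls from 45.2% at 0 to 0.201% at 8 or more, and the share with 1 read goes from 72.1% to 82.2%.

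The inserted part was rich in G and C. In deposited gaps of long-gap joins, G was 37.5 ± 1.48%, C 27.8 ± 1.70%, T 17.9 ± 1.54% and A 16.8 ± 0.698% of nucleotides (SD, n = 8 mice). G and C together were 65.2 ± 1.41%, against 70.2 ± 0.771% in the gaps of other clonotypes, lower in 8 of 8 mice (exact sign-flip adjusted p = 0.0100). The direction turned for net inserts, at 71.4 ± 1.92% against 70.7 ± 0.797%, a difference that did not pass the exact test (adjusted p = 0.375). In net inserts G was 40.7 ± 2.09% and C 30.7 ± 1.16%, and A and T were 14.4 ± 1.04% and 14.2 ± 1.73%. These values include the gaps, described below, that held sequence of the TRA locus, a δ-chain D segment or a β-chain J segment. CTXpre/CD4post replicate 4, with such gaps of 103 and 70 nucleotides, had the lowest G and C share of net inserts at 67.5%. The part of these gaps in the values was not tested.

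Amino acids were read from codons that lay wholly inside the gap and compared with such codons of other clonotypes within each mouse. By deposited ends 4 of 20 amino acids (20%) were higher in long-gap joins and 5 of 20 (25%) were lower at an adjusted p under 0.05 in the exact sign-flip test. Valine was 8.09 ± 1.77% of inserted codons against 2.66 ± 0.470%, a difference of 5.44 percentage points, and leucine was 11.6 ± 1.27% against 6.996 ± 0.697%, a difference of 4.58. Threonine rose by 3.40 points and serine by 2.23 points, and these 4 amino acids were higher in 8 of 8 mice (exact adjusted p = 0.0223 each). Glycine was 18.0 ± 1.49% against 25.1 ± 0.932% and proline 12.9 ± 1.04% against 16.8 ± 1.02%, and both were lower in 8 of 8 mice with the same adjusted p in the exact test. Tryptophan fell by 2.01 points in 8 of 8 mice (exact adjusted p = 0.0223), and arginine fell by 2.69 points and glutamate by 0.959 points in 7 of 8 mice (exact adjusted p = 0.0347). Whole codons are read from gaps of 3 to 7 nucleotides in other clonotypes and from longer gaps in long-gap joins.

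Net inserts kept none of these calls, with 0 of 20 amino acids higher (0%) and 0 of 20 lower (0%) and a lowest exact adjusted p of 0.156. Without adjustment, tryptophan, asparagine, cysteine, histidine and glycine had an exact p under 0.05. Tryptophan was 3.27 ± 0.883% against 4.64 ± 0.438% and was lower in 8 of 8 mice (unadjusted exact p = 0.00781). Glycine, encoded by GGN, was the most frequent inserted amino acid at 23.4 ± 2.14%, followed by proline, encoded by CCN, at 16.7 ± 1.05% and arginine at 11.2 ± 2.38%. Valine was 3.20 ± 1.29% and leucine 7.37 ± 1.34%, against 2.58 ± 0.447% and 6.84 ± 0.738% in other clonotypes. Codons of the gaps that held sequence of the TRA locus, a δ-chain D segment or a β-chain J segment are counted here too, and their part was not tested. The germline bases of TRAV9-2 beyond its deposited end, printed above, begin with gtt and ttg, codons of valine and leucine, and those of TRAJ24 hold aca, a codon of threonine, in the frame of the printed joins.

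**Figure D4:**
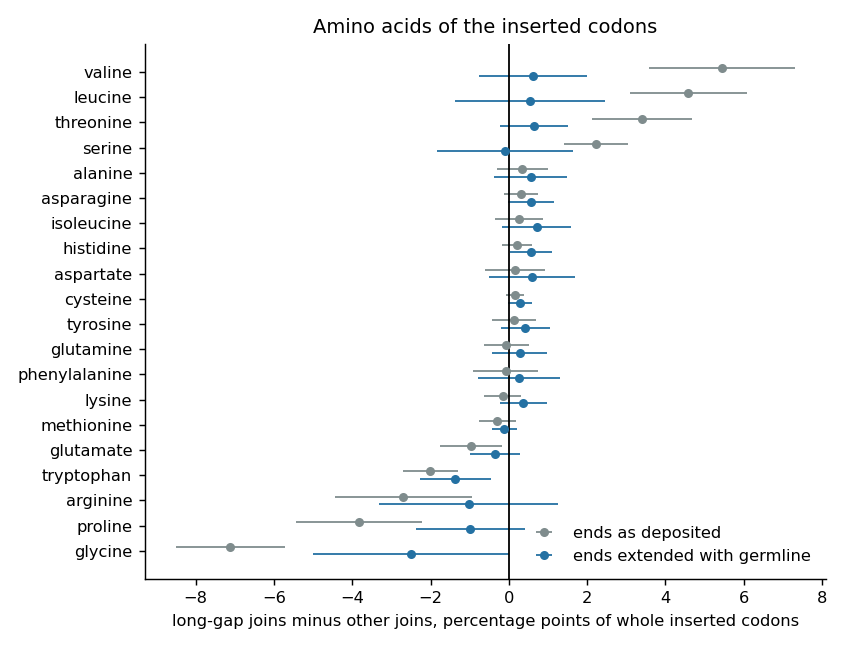
Difference in the share of each amino acid among whole inserted codons between joins with 8 or more gap nucleotides and other clonotypes (x axis, percentage points, mean ± SD over 8 mice), for deposited ends (grey) and extended ends (blue). Valine is at 5.44 and glycine at −7.11 with deposited ends, and with extended ends they are at 0.625 and −2.50.

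CDR3 loops of long-gap joins were about 1 amino acid longer than those of other clonotypes, and their V and J parts were shorter. The mean length was 14.7 ± 0.211 amino acids for long-gap joins, 14.8 ± 0.247 for net inserts and 13.6 ± 0.0181 for other clonotypes (SD, n = 8 mice). By deposited ends long-gap joins held 9.10 ± 0.414 V bases against 12.6 ± 0.0566, and 24.9 ± 0.232 J bases against 27.1 ± 0.0381. Net inserts held 10.0 ± 0.298 V bases and 24.5 ± 0.309 J bases. The lengths of the loop and its parts depend on the gap rule, so no p-value is given for them. They were still among the 9 within-mouse measures adjusted together, which lowers the adjusted p of other measures. The 18-residue class held 43 of 1428 long-gap joins (3.01%) and 167 other clonotypes (0.322%).

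J segment use of long-gap joins differed from that of other clonotypes for 3 of 43 J segments by edgeR's quasi-likelihood test on numbers of clonotypes, with the mouse as a block and Benjamini-Hochberg adjustment. Of the 43, 2 were higher (4.65%) and 1 was lower (2.33%). TRAJ24 made up 197 of 1428 long-gap joins (13.8%) and 0.805% of other clonotypes, and ranged from 10.6 to 17.0% over mice against 0.652 to 0.937%. Its log2 fold was 4.22 (SE 0.153, edgeR adjusted p = 5.6e-18), and with net inserts, where 12 joins were left, it was 0.08 (SE 0.454, edgeR adjusted p = 0.927). TRAJ47 was 3.85% against 1.75%, higher in 6 of 8 mice, with a log2 fold of 1.27 (SE 0.244, edgeR adjusted p = 5.5e-04), and 0.44 with net inserts (edgeR adjusted p = 0.535). TRAJ12 was 1.26% against 3.05%, lower in 7 of 8 mice, with a log2 fold of −1.14 (SE 0.288, edgeR adjusted p = 0.00853), and it was also lower among net inserts at −1.44 (SE 0.369, edgeR adjusted p = 0.00558). The TRAJ12 call by deposited ends was lost without CTXpre/CD4post replicate 4 or 5, at edgeR adjusted p values of 0.0501 and 0.0541. Among net inserts 0 of 43 J segments were higher (0%) and TRAJ12 was the 1 that was lower (2.33%).

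J segments are numbered along the locus with the highest numbers nearest the V segments, so a lower mean number means use of J segments farther from them. The mean TRAJ number was 31.6 ± 1.23 for long-gap joins and 30.6 ± 0.792 for other clonotypes, higher in 6 of 8 mice (exact sign-flip adjusted p = 0.0967). For net inserts it was 32.2 ± 1.60, higher in 7 of 8 mice with an exact adjusted p of 0.0352. Without clonotypes of 1 read the difference was −0.0329, with 4 mice higher and 4 lower.

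At 8 or more nucleotides the difference in J position was larger in the CTXpre mice, but the group comparison did not pass correction. The mean TRAJ number of long-gap joins was 32.5, 32.6 and 33.5 in CTXpre mice and 30.9, 31.6, 29.5, 31.1 and 31.2 in CTXpre/CD4post mice, so the groups did not overlap. Long-gap joins minus other clonotypes of the same mouse was 1.53, 2.83 and 3.46 in CTXpre mice and −0.211, 0.381, 0.208, 0.253 and −0.326 in CTXpre/CD4post mice, with means of 2.61 ± 0.985 (SD, n = 3) and 0.0610 ± 0.310 (SD, n = 5). For net inserts it was 2.16, 4.46 and 4.46 against 0.164, 1.09, 0.815, 1.03 and −0.865. The exact Mann–Whitney test gave p = 0.0357 for each of these comparisons, the smallest that 3 mice against 5 allow, and 0.179 after adjustment together with the 8 properties above, so they do not pass the correction. They were added after their values were seen. The groups overlapped at 6 or more nucleotides, where the difference from other clonotypes was 1.34 ± 1.18 against 0.730 ± 0.459 (exact p = 0.571), and without clonotypes of 1 read, where it was 0.874 ± 1.82 against −0.577 ± 2.92 (exact p = 0.571). They stayed apart at 10 or more nucleotides, at 4.16 ± 0.552 against 0.296 ± 0.938 (exact p = 0.0357, adjusted p = 0.179). They also stayed apart with CDR3s from cysteine to phenylalanine or tryptophan, under extension with 1 mismatch or any segment, without TRAV9-2 and TRAJ24, and with each mouse left out.

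V family use was counted over families because copies of a V segment on the duplicated parts of the locus are nearly identical and reads cannot always be assigned between them. By deposited ends 4 of 21 families (19%) were higher and 3 of 21 (14.3%) lower in edgeR's quasi-likelihood test. TRAV9 made up 234 of 1428 long-gap joins (16.4%) and 3.07% of other clonotypes, from 11.2 to 25.2% over mice against 2.50 to 3.60%, with a log2 fold of 2.52 (SE 0.138, edgeR adjusted p = 2.4e-38). Its direction turned with net inserts, to a log2 fold of −0.57 (SE 0.267, edgeR adjusted p = 0.106). TRAV15 was 29 of 1428 long-gap joins and 572 of 51821 other clonotypes, with a log2 fold of 0.97 (SE 0.334, edgeR adjusted p = 0.0178) and was not called for net inserts, at 0.10 (SE 0.402), nor by deposited ends without CTXpre replicate 2 or CTXpre/CD4post replicate 4.

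V segments of the δ-chain locus were higher by deposited ends and among net inserts, and their calls depended on the setting. TRDV1 (chr14:53881612-53882217) was used by 16 long-gap joins, all of them net inserts, and 283 other clonotypes, and TRDV2-2 (chr14:53960944-53961602) by 7, also all net inserts, and 76 others. The log2 fold was 1.17 (SE 0.448) for TRDV1 and 1.82 (SE 0.689) for TRDV2-2 by deposited ends, both with an edgeR adjusted p of 0.0306. For net inserts it was 1.48 (SE 0.430, edgeR adjusted p = 0.00544) and 2.15 (SE 0.728, edgeR adjusted p = 0.0154). TRDV1 was used by 10 long-gap joins of CTXpre mice and 6 of CTXpre/CD4post mice, and made up 0 to 2.79% of long-gap joins over mice. Its use among long-gap joins did not differ between the groups (log2 fold −1.08, edgeR adjusted p = 0.696). Pooled over mice, these joins were 10 of 100 TRDV1 clonotypes and 6 of 199, which leaves out the spread between mice and was not tested. Each of both segments was a larger share of long-gap joins than of other clonotypes in 5 of 8 mice. By deposited ends the TRDV1 call was lost without CTXpre replicate 2 or 3 or CTXpre/CD4post replicate 3 or 4, with the lowest log2 fold of 0.70 without CTXpre replicate 3 (edgeR adjusted p = 0.440). The TRDV2-2 call was lost without CTXpre replicate 1 or 3 or CTXpre/CD4post replicate 2, 3, 4 or 5, with the lowest log2 fold of 1.24 without CTXpre/CD4post replicate 2 (edgeR adjusted p = 0.302). With DESeq2 TRDV1 was not called (log2 fold 1.13, adjusted p = 0.127), and TRDV2-2 was not called in edgeR with no filter on low numbers (1.79, adjusted p = 0.0579) or with any-segment extension (1.42, adjusted p = 0.255). By reads in place of clonotypes neither was called, at edgeR adjusted p values of 0.123 and 0.0777. All TRDV segments together were 27 of 993 net inserts (2.72%) and 424 of 51821 other clonotypes (0.818%).

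Lower families were TRAV16, TRAV17 and TRAV19. TRAV16 was 54 of 1428 long-gap joins (3.78%, from 2.23 to 4.91% over mice) and 8.96% of other clonotypes (from 7.98 to 10.1%), lower in 8 of 8 mice. Its log2 fold was −1.15 (SE 0.171, edgeR adjusted p = 3.9e-09), and −1.36 (SE 0.210) with net inserts. TRAV19 was 18 joins (1.26%) against 2.83% with a log2 fold of −1.06 (SE 0.324, edgeR adjusted p = 0.00706), and −1.09 with net inserts, and by reads it was not called at −0.87 (edgeR adjusted p = 0.123). TRAV17 was 2 joins (0.140%) against 1.15%, with a log2 fold of −2.91 (SE 0.737, edgeR adjusted p = 8.3e-04), and −2.59 with net inserts. With net inserts these 3 of 21 families (14.3%) were called lower and the 2 TRDV segments (9.52%) higher.

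**Figure D5:**
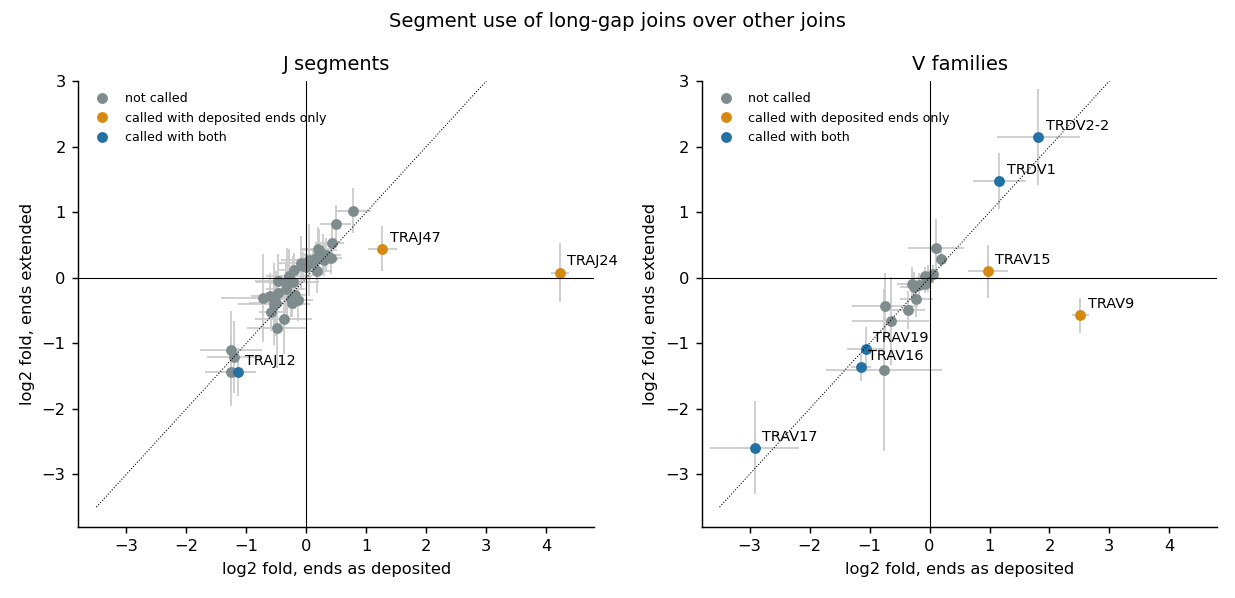
Log2 fold of use by joins with 8 or more gap nucleotides over use by other clonotypes, with ends as deposited (x axis) and extended (y axis), for 43 J segments (left) and 21 V families (right), with SE bars, the line of equal values dotted, and segments called by edgeR at an adjusted p under 0.05 in orange (deposited ends only) or blue (both). TRAJ24 at 4.22 and TRAV9 at 2.52 on the x axis lie at 0.08 and −0.57 on the y axis, whereas TRAJ12, TRAV16, TRAV17, TRAV19, TRDV1 and TRDV2-2 lie near the line.

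No single segment or family was called as used differently by long-gap joins of CTXpre and CTXpre/CD4post mice. By edgeR's quasi-likelihood test 0 of 43 J segments (0%) and 0 of 21 V families (0%) passed an adjusted p of 0.05, and DESeq2 gave 0 and 0. Without adjustment 3 J segments and 1 V family had a p under 0.05, and the lowest edgeR adjusted p values were 0.449 and 0.631. The semi-invariant pairs of innate-like T cells were too rare among all clonotypes for a comparison. TRAV11 or TRAV11D with TRAJ18, the iNKT pair, was 0 of 1428 against 31 other clonotypes (0.0598%), and TRAV1 with TRAJ33, the MAIT pair, was 0 of 1428 against 12 (0.0232%). At those shares 0.854 and 0.331 would be found among 1428, and a count of 0 allows a share of up to 0.210%. The TRAV7 family, which by general knowledge includes the V segment of the Pmel-1 receptor, was 219 of 1428 long-gap joins (15.3%) and 17.2% of other clonotypes.

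The longest gaps held sequence from elsewhere in the receptor loci. Of 30 net inserts with 16 or more nucleotides, 7 held a run of 20 or more bases of the TRA locus, 11 held 8 or more bases of the δ-chain D segment TRDD2, 6 ended in a β-chain J segment and 6 held none of these. The next sequences are the longest gap of each group, with the whole gap in capitals, and then 2 joins with the run of the TRA locus in capitals.
TRAV10 with TRAJ17, CTXpre replicate 1: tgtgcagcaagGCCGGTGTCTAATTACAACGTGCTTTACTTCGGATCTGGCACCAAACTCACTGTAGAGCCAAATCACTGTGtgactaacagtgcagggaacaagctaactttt
TRAV14N-3 with TRAJ27, CTXpre/CD4post replicate 4: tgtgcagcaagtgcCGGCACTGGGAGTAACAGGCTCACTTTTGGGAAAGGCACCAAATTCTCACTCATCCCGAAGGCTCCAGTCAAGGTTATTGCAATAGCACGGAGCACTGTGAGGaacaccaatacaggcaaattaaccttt
TRAV10 with TRAJ17, CTXpre/CD4post replicate 4: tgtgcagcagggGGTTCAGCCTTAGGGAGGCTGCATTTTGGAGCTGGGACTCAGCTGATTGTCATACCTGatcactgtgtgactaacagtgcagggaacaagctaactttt
TRAV8D-1 with TRAJ40, CTXpre replicate 3: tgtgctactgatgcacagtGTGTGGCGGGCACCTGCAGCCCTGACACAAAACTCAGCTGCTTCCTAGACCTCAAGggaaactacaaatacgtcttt

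In 4 of the 7 joins a second J segment lay inside the gap, up to its annotated last base, and was followed with no base between by 9 or 10 bases that precede TRAJ17 (chr14:54201775-54201837) in the genome and then by TRAJ17 itself. The inner segment was TRAJ21 in CTXpre replicate 1 (chr14:54198790-54198846), TRAJ18 in CTXpre replicate 3 and CTXpre/CD4post replicate 4 (chr14:54200777-54200842) and TRAJ30 in CTXpre/CD4post replicate 5. The bases before TRAJ17 included cactgtg, the heptamer of the recombination signal that lies next to a J segment. TRAJ28 filled 58 bases of the 103-nucleotide gap before TRAJ27 in CTXpre/CD4post replicate 4. In the TRAV8D-1 join the run of 56 bases began 7 bases after the annotated V end and read through the heptamer cacagtg next to that V segment. The remaining join, in CTXpre/CD4post replicate 2, held 30 bases of TRAJ52 before TRAJ52. Each of the 7 had 1 or 2 reads.

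TRDD2 (chr14:54122226-54122241, plus strand) was matched for 8 to 15 bases in 13 net inserts and in the gap of 0 of 51821 other clonotypes. Of the 13, 7 used a TRDV segment and 3 used TRAV15, a family of V segments that both α and δ chains use. The sequences show the germline D segment and the longest match of each group in capitals.
TRDD2 germline: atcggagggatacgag
TRAV15N-2 with TRAJ9, CTXpre replicate 2, 2 reads: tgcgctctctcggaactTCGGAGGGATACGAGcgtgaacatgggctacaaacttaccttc
TRDV2-2 with TRAJ42, CTXpre/CD4post replicate 2, 1 read: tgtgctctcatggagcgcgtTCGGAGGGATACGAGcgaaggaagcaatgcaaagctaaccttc

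Both matches ran for 15 bases to the last base of TRDD2. Further inserted nucleotides were left on either side in the TRDV2-2 join and only on the J side in the TRAV15N-2 join. Other clonotypes had gaps of at most 7 nucleotides by deposited ends, too short for a match of 8 bases, so the 0 among them follows from the rule. The deposited D column named a segment for 365 of 1428 long-gap joins and 689 of 51821 other clonotypes.

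A β-chain J segment ended 7 long-gap joins, with deposited gaps of 15 to 31 nucleotides. A CDR3 that ends in another segment than the named one leaves such a gap, so the rule itself places these joins among long-gap joins. The germline match was 19 to 23 bases of TRBJ2-2 (chr6:41542957-41543007) or TRBJ2-3 (chr6:41543223-41543271), longer than the match to the named segment, which was TRAJ57, TRAJ22 or TRAJ56. The sequences show the CDR3 part of both β segments and a join that holds TRBJ2-2 whole, in capitals.
TRBJ2-2 germline: caaacaccgggcagctctacttt
TRBJ2-3 germline: agtgcagaaacgctgtatttt
TRAV15N-1 with TRAJ57 as named, CTXpre/CD4post replicate 1, 1 read: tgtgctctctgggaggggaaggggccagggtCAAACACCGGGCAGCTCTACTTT

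These 7 joins came from CTXpre replicates 1 and 2 and CTXpre/CD4post replicates 1 and 4, had 1 or 2 reads each, and were counted among long-gap joins throughout. The libraries of both chains came from the same RNA, and whether these joins formed in the cells or in the reactions was not tested. Long-gap joins whose first residue was not cysteine numbered 10, and 30 did not end in phenylalanine or tryptophan.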

How the data were processed

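The α-chain repertoires of 8 mice were analyzed, with groups and replicate numbers from the sample labels. The deposited counts are reads per clonotype. For them the authors used nested PCR on TCR RNA and a MiSeq, trimmed reads with Scythe and Sickle, aligned them in MiXCR, took clonotypes with VDJtools and drew 10000 reads from each library. The deposited V end and J start are positions in the CDR3, counted from 0 by the aligner, whose version is not given in the sources used here, and a position that stops early leaves germline bases in the gap. β-chain clonotypes were not used here.

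The gap was J start minus V end minus 1. Ends were extended base by base along the named segment of the GRCm38 genome (GENCODE vM21 coordinates). Groups of mice were compared by a two-sided Mann–Whitney test, exact over 56 arrangements of 8 mice, and clonotype classes within mice by the exact two-sided sign-flip test over 256 sign patterns (Python 3.11.15, numpy 2.4.6, pandas 2.3.3, scipy 1.17.1). Numbers of clonotypes per J segment and V family were compared by edgeR 4.0.16 (R 4.3.3; TMM, quasi-likelihood test, at least 10 clonotypes in at least 3 of 16 columns), with DESeq2 1.42.0 as an alternative. The test functions were tested on simulated data. p-values were adjusted by Benjamini-Hochberg and called under 0.05. Intervals are Wilson 95% intervals.

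Named items followed a rule: up to 10 segments and 5 amino acids in each direction among those called, the most abundant long-gap join of each mouse, those in most mice, and the longest gap of each group. TRAJ45 and the joins with TRDD2, TRBJ or locus runs were named after their values were seen. The joins, lists and tests were chosen with earlier results of these data known. The sample labels do not say whether replicate numbers pair the mice. Deviations in J use of same-numbered mice had correlations of 0.125, −0.00265 and −0.247 over 44 J segments, which cannot settle whether such mice shared other conditions.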

Additional observations from a re-analysis of the deposited data

Results flagged for a closer look

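For 10 results the highest or lowest mouse of the CTXpre/CD4post group was compared with the others of that group by Dixon's ratio of gap to range. For normally distributed values chance alone passes it in about 1 of 20 groups. Of the 10 results 4 passed. All 4 are values of replicate 5, and they are not independent of each other. Long-gap joins were 3.53% of its reads, against 2.08 to 2.43% in the other CTXpre/CD4post mice. They had 2.60 reads per clonotype, against 1.16 to 1.40 in the others, and 1.32 times the reads per clonotype of other joins in the same mouse. It held 4 long-gap joins with 10 or more reads, and the other CTXpre/CD4post mice held 0. With all other mice at 0 the ratio is 1 for any count above 0, so the chance rate given does not hold for this result. Without the 138-read TRAV14D-3-DV8 with TRAJ24 join the values of replicate 5 were 2.18% of reads, 1.59 reads per clonotype and a ratio of 0.810. With extended ends its net inserts were 1.32% of reads, had 1.45 reads per clonotype and included 1 join with 10 or more reads.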

How the results depend on the processing

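Alternatives covered the threshold, clonotypes of 1 read, CDR3 ends, extension of V and J ends, the test, filter and tool, reads in place of clonotypes, the replicate block and each mouse left out. Exact extension, extension with any segment and leaving out TRAV9-2 and TRAJ24 were chosen after seeing the data, as was 1-mismatch extension for segment use. A share with 1 read cannot be had without clonotypes of 1 read. Where no cause is named, it was not tested.

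The CTXpre/CD4post minus CTXpre difference in the share of clonotypes, −0.0251 percentage points, turned to 0.0775 at 10 or more nucleotides and ranged from −0.101 to 0.0560 with each mouse left out. That in the share of reads, −0.0193, turned to 0.288 at 10 or more nucleotides, ranged from −0.281 to 0.0817 with each mouse left out, and was −0.359, −0.356 and −0.365 with exact extension, 1 mismatch and without TRAV9-2 and TRAJ24, each at an exact p of 0.0357. With exact extension and any 1 mouse left out, that p was 0.0571 to 0.0952, the smallest that so few mice allow. With the replicate block the differences were −0.0159 and −0.233 (exact p = 1 and 0.5, where 3 pairs allow no p below 0.25), and 0 properties, J segments and V families were called. No property passed an adjusted p of 0.05 under any alternative, and these turned sign. The ratio of reads per clonotype became −0.122, −0.122, −0.125 and −0.113 under exact, 1-mismatch and any-segment extension and without TRAV9-2 and TRAJ24, and −0.0805 with the block. Joins with 10 or more reads became −0.133 under each of these 4 and −0.333 with the block. CDR3 length became 0.00575 at 6 or more nucleotides, 0.0125 with exact extension and 0.0179 with 1 mismatch. Gap G and C became 0.112 with exact extension and 0.0453 with 1 mismatch. The share with 1 read became −1.41 at 10 or more nucleotides, and that in another mouse −0.00649 there and −0.00596 without clonotypes of 1 read. With the block, reads per clonotype became −0.0191 and gap length −0.0499. With each mouse left out, the ranges were −0.0950 to 0.0384 for the ratio, −0.00453 to 0.354 for reads per clonotype, −0.177 to 5.51 for the share with 1 read, −0.333 to 0.800 for joins with 10 or more reads, −0.190 to 0.000387 for CDR3 length and −0.428 to 1.06 for the share in another mouse.

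Within mice, the difference in reads per clonotype, −0.0930, was called at 6 or more nucleotides (−0.0931), with exact, 1-mismatch and any-segment extension (−0.244, −0.244 and −0.241) and without TRAV9-2 and TRAJ24 (−0.231), turned to 0.157 at 10 or more nucleotides and 0.202 without clonotypes of 1 read, and ranged from −0.196 to −0.0553 with each mouse left out. The difference in gap G and C turned from −4.94 to 0.715, 0.732 and 0.492 under exact, 1-mismatch and any-segment extension and 0.428 without TRAV9-2 and TRAJ24. That in TRAJ number turned to −0.0329 without clonotypes of 1 read. Presence in other mice and the share with 1 read kept their direction and call under every alternative that gave a value.

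Amino acids called higher and lower were 4 and 5, and 0 and 0 under each extension and without TRAV9-2 and TRAJ24, where valine was at 0.508 to 0.679 and glycine at −3.04 to −2.38. They were also 0 and 0 without clonotypes of 1 read, where glycine at −6.79, threonine at 5.55 and valine at 4.39 each had an exact adjusted p of 0.0521. Against V- and J-encoded codons of the same joins they were 10 and 8, with glycine at 8.67, proline at 12.6, arginine at 7.14, glutamate at 3.27 and tryptophan at 1.69 percentage points above. This reference holds the first and last residues of the CDR3. Cysteine (0.297 against 9.24%) and phenylalanine (1.68 against 9.85%) were therefore lower by the choice of reference, which also raises the gap's shares of other amino acids against it. Serine turned to −0.0878, −0.0896 and −0.164 under exact, 1-mismatch and any-segment extension. With each mouse left out, 4 were higher and 3 to 4 lower, with 3 lower without CTXpre replicate 1 or 3 or CTXpre/CD4post replicate 1, 2, 3 or 4.

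J segments called higher and lower, 2 and 1, were 1 and 8 without clonotypes of 1 read, 6 and 5 at 6 or more nucleotides, 1 and 2 at 10 or more, 0 and 1 under each extension and 1 and 1 without TRAV9-2 and TRAJ24. TRAJ24 turned to a log2 fold of −0.0373 with 1 mismatch and −0.14 with any segment. With each mouse left out, 0 to 2 were lower, 2 without CTXpre/CD4post replicate 2 and 0 without replicate 4 or 5. V families called higher, 4, were 2 by reads, 1 without clonotypes of 1 read, 2 at 10 or more nucleotides, 2 with exact or 1-mismatch extension and 1 with any segment, and 1 to 4 with each mouse left out, 2 without CTXpre replicate 2 or 3 or CTXpre/CD4post replicate 3 and 1 without CTXpre/CD4post replicate 4. Those called lower, 3, were 1 without clonotypes of 1 read, 2 by reads and 4 at 6 or more nucleotides and with any segment. TRAV9 turned to −0.57 with exact and 1-mismatch extension, −1.07 with any segment and −0.47 without TRAV9-2 and TRAJ24. TRAJ12 and TRAV16 kept their call under every alternative other than a mouse left out, and TRAV16 also with each mouse left out. At 10000 reads a library, with most clonotypes at 1 read, presence in another mouse is a lower bound.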
